A study of Mus musculus with 16 samples.

Results

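Levels of 39 genes of DNA replication and S phase were followed in a mouse line of macrophage-like character, RAW264.7, which came from a virus-induced leukaemia and in which proteins that move phosphatidylserine had been knocked down. The 39 genes were chosen by symbol from 55573 gene records. Each symbol had 1 record, and all 39 were among the 13107 genes with enough counts to be tested. RNA was sequenced from 16 libraries in 4 groups of 4, named by the labels ORP5/8 KD, ATP11A/C KD, CDC50A KD and Parental, where KD stands for knockdown. ORP5/8 KD is named for 2 lipid transfer proteins of membrane contact sites (genes Osbpl5 and Osbpl8), ATP11A/C KD for flippases of the plasma membrane (Atp11a is reported here), and CDC50A KD for the subunit most such flippases need to leave the endoplasmic reticulum (Tmem30a). The labels name no other genetic change, no added agent and no synchronisation in any group: all cells were taken the day after plating. Parental carries no construct that the labels name, no library of a non-targeting construct is analysed here, and the labels do not say whether a knockdown group is 1 clone or a mixed population. They also do not say that the 4 libraries of a group came from separate cultures, and a p-value here reflects only how much these libraries scatter, which could be technical scatter alone.

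Replication starts at origins, where the origin recognition complex with Cdc6 and Cdt1 loads the MCM2-7 helicase ring in G1, a step called licensing. In S phase Cdc45 and the GINS complex turn the ring into an active helicase, after which primase, polymerases, the sliding clamp and enzymes of deoxynucleotide synthesis carry the copying. Most of these genes are targets of E2F factors and are transcribed around the passage from G1 into S, so that in unsynchronised cultures their RNA follows both how many cells are near S phase and how much RNA each holds. In RNA from whole cultures, fewer cells of a kind and less RNA per cell cannot be told apart. RAW264.7 cells divide continuously in culture.

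The libraries held 24020891 to 41543050 counts, and levels are given as CPM, the counts of a gene scaled to a common library size, after TMM scaling, which sets libraries against each other through the bulk of their genes. Osbpl8 was lower in all 3 knockdown groups, at 99.1 ± 8.17 CPM in ORP5/8 KD, 127 ± 8.99 for ATP11A/C KD and 116 ± 4.41 for CDC50A KD, against 337 ± 5.84 in Parental (SD, n = 4 each). Osbpl5 stood at 0.176 ± 0.107 CPM in ORP5/8 KD and 0.14 ± 0.0722 in Parental, too few counts to test. Atp11a was 21.4 ± 0.843 CPM in ATP11A/C KD and 61.4 ± 1.91 in Parental (log2 fold change -1.52), and it was also lower in ORP5/8 KD (-0.21) and CDC50A KD (-0.51). Tmem30a was lower in all 3 knockdown groups, at 127 ± 5.8 CPM in CDC50A KD (-0.35), 130.5 ± 10.4 in ORP5/8 KD (-0.31) and 142 ± 13.1 in ATP11A/C KD (-0.19), against 162 ± 4.83 in Parental. For Tmem30a, CDC50A KD was not called different from ORP5/8 KD (adjusted p = 0.6) or ATP11A/C KD (adjusted p = 0.0566). Since Osbpl5 was too low to test, groups are called by their labels. The 10 macrophage markers summed to 7507 to 7923 CPM in ORP5/8 KD, 6286 to 6658 in ATP11A/C KD and 7277 to 7584 in CDC50A KD, against 11525 to 12240 in Parental, and 23 markers of other cell types to at most 0.688 CPM, with 17 to 21 of them at 0 in every library. Of the 9 macrophage markers with enough counts, 7, 7 and 6 were lower in ORP5/8, ATP11A/C and CDC50A KD and 2, 1 and 2 higher. Lyz2 made up much of the sum, at means of 4168, 2582 and 2859 CPM in the same order against 7207 CPM in Parental. Adgre1 was among the higher ones in ATP11A/C KD (log2 fold change 0.63) and CDC50A KD (0.50). Mitochondrial genes took 1.68% ± 0.112 of counts in ORP5/8 KD, 1.56% ± 0.194 for ATP11A/C KD and 1.63% ± 0.151 for CDC50A KD, against 1.19% ± 0.0744 in Parental. Both measures moved with the knockdown groups, and their part in the results was not tested.

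Promoters are shown for the 4 helicase subunits with an E2F-type match, since all 6 subunits of the MCM2-7 ring were higher in CDC50A KD, and for Gins3 and Pcna, which moved against most of the others. The sequences, from RefSeq on GRCm38.p6, run 5′ to 3′ along the gene and span 250 bases before to 50 bases after an annotated start. Capitals mark matches, on either strand, to 4 E2F-type motifs: TTTCGCGC, TTTGGCGC, GGCGGGAA and TTTCCCGC. GGCGGGAA and TTTCCCGC overlap where a site reads GGCGGGAAA, and TTTCGCGC and TTTGGCGC overlap where it reads TTTCGCGCCAAA or, on the other strand, TTTGGCGCGAAA.
Mcm3: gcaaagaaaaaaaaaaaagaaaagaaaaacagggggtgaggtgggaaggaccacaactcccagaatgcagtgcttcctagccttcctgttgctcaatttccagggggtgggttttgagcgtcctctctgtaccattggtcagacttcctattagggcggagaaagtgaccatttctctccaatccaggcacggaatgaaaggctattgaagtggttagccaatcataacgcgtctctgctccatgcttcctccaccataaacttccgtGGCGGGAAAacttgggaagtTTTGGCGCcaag
Mcm5: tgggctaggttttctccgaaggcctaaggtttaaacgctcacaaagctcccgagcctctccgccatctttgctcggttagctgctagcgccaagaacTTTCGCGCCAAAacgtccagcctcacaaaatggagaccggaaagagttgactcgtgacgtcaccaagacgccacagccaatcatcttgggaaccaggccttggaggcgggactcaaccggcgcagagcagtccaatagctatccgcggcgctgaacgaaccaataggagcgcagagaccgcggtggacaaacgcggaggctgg
Mcm6: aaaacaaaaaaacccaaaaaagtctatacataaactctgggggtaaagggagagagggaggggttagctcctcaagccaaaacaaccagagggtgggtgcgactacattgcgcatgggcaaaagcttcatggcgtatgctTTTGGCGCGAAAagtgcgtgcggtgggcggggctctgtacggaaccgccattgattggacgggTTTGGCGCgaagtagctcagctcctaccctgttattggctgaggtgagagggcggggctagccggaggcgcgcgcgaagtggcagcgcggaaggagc
Mcm7: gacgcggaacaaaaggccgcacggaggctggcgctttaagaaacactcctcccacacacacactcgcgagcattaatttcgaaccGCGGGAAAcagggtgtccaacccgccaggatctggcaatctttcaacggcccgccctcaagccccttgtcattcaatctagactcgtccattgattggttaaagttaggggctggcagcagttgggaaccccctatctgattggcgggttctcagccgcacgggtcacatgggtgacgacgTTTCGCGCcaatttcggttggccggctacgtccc
Gins3: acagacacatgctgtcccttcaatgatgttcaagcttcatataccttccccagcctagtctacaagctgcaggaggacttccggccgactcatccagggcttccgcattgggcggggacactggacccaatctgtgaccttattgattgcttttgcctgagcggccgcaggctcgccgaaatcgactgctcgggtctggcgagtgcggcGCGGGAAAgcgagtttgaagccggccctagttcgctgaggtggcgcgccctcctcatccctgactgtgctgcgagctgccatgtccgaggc
Pcna: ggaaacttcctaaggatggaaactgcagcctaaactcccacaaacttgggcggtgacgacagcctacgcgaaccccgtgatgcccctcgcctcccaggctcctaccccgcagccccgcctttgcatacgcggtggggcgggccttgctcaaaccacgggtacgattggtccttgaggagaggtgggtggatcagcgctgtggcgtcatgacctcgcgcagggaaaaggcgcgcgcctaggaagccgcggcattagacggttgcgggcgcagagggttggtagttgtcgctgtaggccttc

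These promoters lie at chr1:20820263-20820562, minus strand (Mcm3), chr8:75109259-75109558, plus strand (Mcm5), chr1:128359656-128359955, minus strand (Mcm6), chr5:138171834-138172133, minus strand (Mcm7), chr8:95633309-95633608, plus strand (Gins3) and chr2:132253131-132253430, minus strand (Pcna). The table held promoters of 32 of the 39 genes, and Rfc2, Gins1, Ccne2, Mcm4, Pole, Gins2 and Gins4 had none. Of the 32, 16 (50%) had at least 1 E2F-type match, against 4.0% of the 27025 genes of the table. TTTCGCGC stood in 7 (21.9% against 0.374% of all genes), TTTGGCGC in 5 (15.6% against 0.585%), GGCGGGAA in 6 (18.8% against 2.52%) and TTTCCCGC in 6 (18.8% against 1.24%). Mcm3 and Mcm6 had 3 matches each, 2 of them overlapping, and Mcm5 had 2 overlapping ones. Mcm7 has 2 starts in the table, and the one with matches is shown. CCAAT, or its reverse complement ATTGG, was in 20 promoters (62.5% against 41.1%) and TTTGAA, or TTCAAA, in 4 (12.5% against 20.2%). Pcna held no E2F-type match in this window. Neither did Mcm2, a ring subunit that was also higher in CDC50A KD (log2 fold change 0.24). Genes with and without a match had like median log2 fold changes against Parental, at -0.02 and -0.02 in ORP5/8 KD, 0.07 and 0.07 in ATP11A/C KD and 0.15 and 0.15 in CDC50A KD.

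The replication genes moved by small amounts, mostly upward in CDC50A KD and in both directions in ORP5/8 KD. In ORP5/8 KD, 9 of the 39 were higher than in Parental and 13 lower at an adjusted p under 0.05 (edgeR quasi-likelihood test, Benjamini-Hochberg over all genes tested), where 22.0% of all tested genes were higher and 24.3% lower. In ATP11A/C KD 13 were higher and 2 lower, where 17.4% and 20.2% of all genes were. In CDC50A KD 22 were higher and 2 lower, where 24.3% and 26.1% of all genes were, so that 56.4% of the replication genes were called higher there. Their median log2 fold change was -0.03 in ORP5/8 KD, 0.07 for ATP11A/C KD and 0.15 for CDC50A KD, while that of all tested genes was 0.02, 0.01 and -0.01. No replication gene differed from Parental by 2-fold. Of all tested genes, 6.54%, 4.98% and 6.41% were called and differed by at least 2-fold in ORP5/8, ATP11A/C and CDC50A KD. Gins1 moved farthest in ORP5/8 KD (log2 fold change -0.40), Tk1 in ATP11A/C KD (0.30) and Dut in CDC50A KD (0.44). The 4 libraries of the knockdown and of Parental did not overlap for 22, 15 and 26 of the 39 genes in ORP5/8, ATP11A/C and CDC50A KD, against 44.0%, 33.3% and 48.0% of all tested genes. The 3 comparisons share the Parental libraries, so a Parental library that is high or low moves all 3.

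The split in ORP5/8 KD depended on the scaling, as the plot of calls by scaling shows. With upper-quartile or total-count scaling, 13 replication genes were higher than in Parental and 7 lower. Over all tested genes the split shifted likewise, with 4270 higher and 2479 lower under upper-quartile scaling against 2878 and 3181 under TMM. Both scalings ended the calls of Orc1, Orc6, Rfc3, Uhrf1, Ccne2 and E2f1 as lower and added Mcm5, Lig1, Rpa1 and Rpa2 as higher. In CDC50A KD, total-count scaling gave 17 higher and 5 lower than in Parental (19.0% and 31.1% of all genes), ending Gins4, Rfc1, Rfc4, Pole and Rrm1 as higher and adding Orc1, Ccne2 and E2f1 as lower. As a share of raw counts the 39 genes held 0.532% ± 0.00593 in ORP5/8 KD, 0.546% ± 0.00616 for ATP11A/C KD and 0.552% ± 0.0055 for CDC50A KD, against 0.518% ± 0.00357 in Parental. After TMM scaling their summed level was 5108 ± 77.4 CPM in ORP5/8 KD, 5391 ± 39.3 for ATP11A/C KD and 5772 ± 42.8 for CDC50A KD, against 5225 ± 44.6 in Parental. ORP5/8 KD thus lay above Parental in share and below it in scaled sum. Calls that held under every alternative and without every library numbered 6 higher and 7 lower in ORP5/8 KD, 9 and 2 in ATP11A/C KD, and 17 and 2 in CDC50A KD. The share of all tested genes that held by this rule was not counted, so these numbers cannot be set against it.

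**Figure D1:**
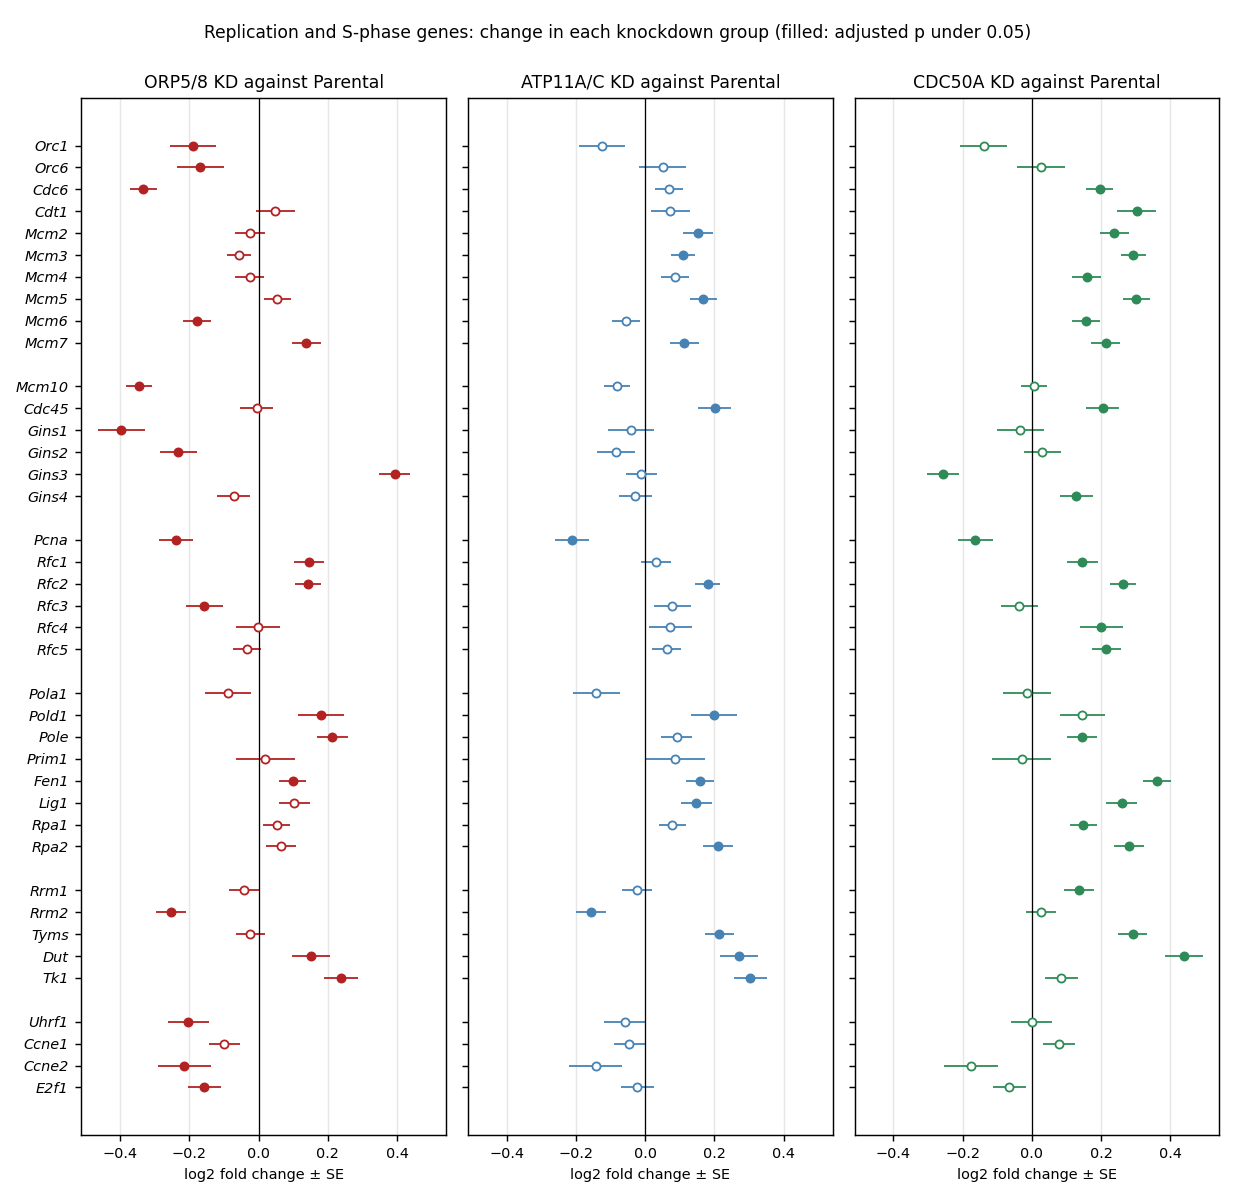
Log2 fold change ± SE of each of the 39 genes (rows, grouped by role) against Parental, with 1 panel per knockdown group and filled points for an adjusted p under 0.05. In ORP5/8 KD 9 filled points lie right of 0 and 13 left, in ATP11A/C KD 13 and 2, and in CDC50A KD 22 and 2. The widest values are -0.40 (Gins1, ORP5/8 KD) and 0.44 (Dut, CDC50A KD).

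**Figure D2:**
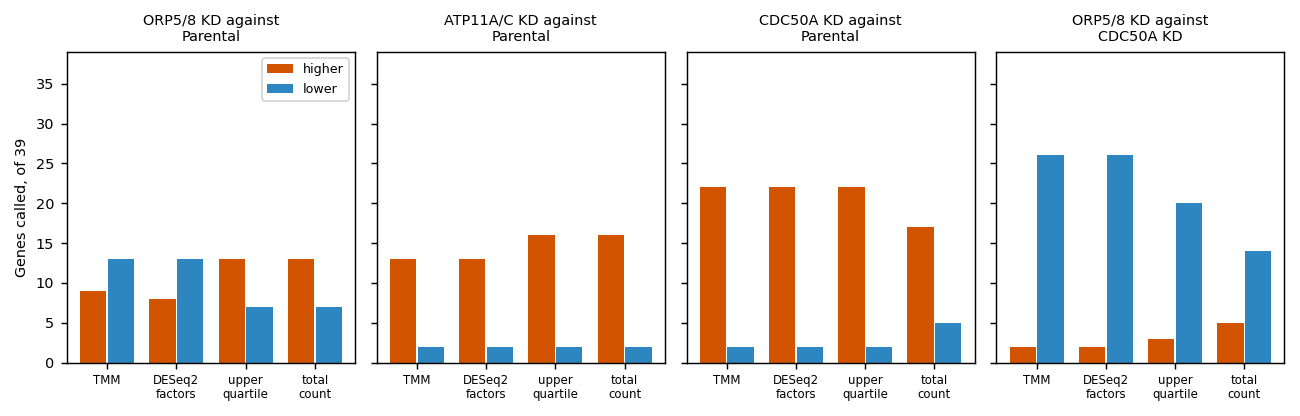
Number of the 39 genes called higher or lower (bars) under 4 library scalings, in 4 comparisons. Against Parental, ORP5/8 KD has 9 higher and 13 lower with TMM and 13 and 7 with total-count scaling, and ORP5/8 KD against CDC50A KD has 26 lower with TMM and 14 with total-count scaling.

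Licensing genes were higher in CDC50A KD and divided in ORP5/8 KD. Of the 10, 8 were higher and 0 lower than Parental in CDC50A KD (all except Orc1 and Orc6), 4 higher and 0 lower in ATP11A/C KD, and 1 higher and 4 lower in ORP5/8 KD. Of all tested genes, 24.3% were higher and 26.1% lower in CDC50A KD, 17.4% and 20.2% in ATP11A/C KD, and 22.0% and 24.3% in ORP5/8 KD. Counts by role, here and below, are to be read against these shares, and each role holds few genes. The median log2 fold change of the 10 was -0.04 in ORP5/8 KD, 0.08 for ATP11A/C KD and 0.20 for CDC50A KD. Cdc6 (ENSMUSG00000017499.15, chr11:98907801-98923940, plus strand, mm10) is the ATPase that joins the origin recognition complex to load the helicase. ORP5/8 KD libraries had 50.1, 49.7, 49.1 and 48.9 CPM of Cdc6, and the 4 of ATP11A/C KD had 62.7, 68.9, 64.9 and 64.9 CPM. CDC50A KD libraries had 68.7, 70.0, 74.6 and 72 CPM, and Parental libraries 63, 63, 61.8 and 61.2 CPM. Its 4 ORP5/8 KD libraries lay below every other library, its CDC50A KD libraries lay above every Parental library, and ATP11A/C KD overlapped with Parental. Against Parental, Cdc6 gave log2 fold changes of -0.33 ± 0.040 (adjusted p = 5.46e-07) for ORP5/8 KD, 0.07 ± 0.039 (adjusted p = 0.183) for ATP11A/C KD and 0.20 ± 0.040 (adjusted p = 0.000327) for CDC50A KD. Values given in parentheses after a group are such log2 fold changes against Parental ± SE. Cdt1 (ENSMUSG00000006585.3, chr8:122568015-122573554, plus strand) brings the helicase ring to the origin and is destroyed in S phase. Cdt1 measured 106, 118, 129 and 124 CPM across ORP5/8 KD and 127, 115, 121 and 122 CPM across ATP11A/C KD. Across CDC50A KD Cdt1 was at 147, 136, 146 and 138 CPM, and across Parental at 119, 123, 108 and 110.0 CPM. The CDC50A KD libraries were all above the Parental ones, while the other 2 knockdown groups overlapped with Parental. Cdt1 had a log2 fold change against Parental of 0.05 ± 0.056 (adjusted p = 0.509) for ORP5/8 KD, 0.07 ± 0.056 (adjusted p = 0.344) for ATP11A/C KD and 0.30 ± 0.056 (adjusted p = 0.000148) for CDC50A KD. The span of Cdt1 overlaps that of the annotated gene Gm20388 on its strand. Of the 16 expected counts of Cdt1, 0 carried decimals, which RSEM gives where reads are shared with other transcripts or places. Whether reads of the 2 genes were kept apart was not tested further.

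The 6 subunits of the MCM2-7 ring, the motor of the replicative helicase, were all higher in CDC50A KD than in Parental under each scaling tried, by log2 fold changes of 0.16 to 0.30 (median 0.23). In ATP11A/C KD 4 of the 6 were higher and 0 lower (-0.06 to 0.17), and in ORP5/8 KD 1 was higher and 1 lower (-0.18 to 0.14). Mcm5 (ENSMUSG00000005410.6, chr8:75109569-75128439, plus strand) carried a promoter with overlapping E2F-type matches, shown above. Levels of Mcm5 were 360.1, 382, 388 and 360.5 CPM in ORP5/8 KD and 426, 391, 404 and 392 CPM in ATP11A/C KD. For CDC50A KD the values of Mcm5 were 445, 425, 451 and 448 CPM, and for Parental 355, 359.9, 357 and 362 CPM. All ATP11A/C KD and CDC50A KD libraries were above Parental, and ORP5/8 KD overlapped with it. Against Parental, Mcm5 gave log2 fold changes of 0.05 ± 0.039 (adjusted p = 0.27) for ORP5/8 KD, 0.17 ± 0.039 (adjusted p = 0.00176) for ATP11A/C KD and 0.30 ± 0.039 (adjusted p = 1.97e-06) for CDC50A KD. Mcm6 (ENSMUSG00000026355.11, chr1:128331590-128359664, minus strand), whose promoter had 3 matches, split the knockdown groups. Mcm6 stood at 299, 286, 284 and 273 CPM in the 4 ORP5/8 KD libraries and at 303, 316, 317 and 306 CPM in those of ATP11A/C KD. Mcm6 in CDC50A KD was 365, 375, 356 and 342 CPM, against 333, 329, 316 and 313 CPM in Parental. The 4 ORP5/8 KD libraries were below Parental and the 4 CDC50A KD libraries above it, with no overlap between the 3 groups, while ATP11A/C KD overlapped with Parental. Mcm6 had a log2 fold change against Parental of -0.18 ± 0.040 (adjusted p = 0.00103) for ORP5/8 KD, -0.06 ± 0.040 (adjusted p = 0.296) for ATP11A/C KD and 0.16 ± 0.040 (adjusted p = 0.00291) for CDC50A KD.

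Mcm7 (ENSMUSG00000029730.16, chr5:138164583-138172422, minus strand) was called higher in all 3 knockdown groups. ORP5/8 KD libraries had 247, 252, 257 and 238 CPM of Mcm7, and the 4 of ATP11A/C KD had 260.3, 234, 239.8 and 242 CPM. CDC50A KD libraries had 258, 255, 274 and 260.4 CPM, and Parental libraries 232, 233, 216 and 223 CPM. Every knockdown library was above every Parental library, with ATP11A/C KD nearest (234 CPM against 233 CPM). Mcm7 had a log2 fold change against Parental of 0.14 ± 0.042 (adjusted p = 0.0105) for ORP5/8 KD, 0.11 ± 0.042 (adjusted p = 0.041) for ATP11A/C KD and 0.21 ± 0.042 (adjusted p = 0.000264) for CDC50A KD. The ATP11A/C KD call was lost without Parental 3 or 4 or ATP11A/C KD 1 (log2 fold change 0.08 to 0.11, adjusted p = 0.0936 to 0.167). That call was also lost with no low-count filter, with the replicate number as a block and in a fit of the compared groups alone. Lists of left-out libraries, here and below, do not cover such other settings, some of which ended the same calls. All 16 expected counts of Mcm7 carried decimals, which RSEM gives where reads are shared with other transcripts or places, and the gene holds Mir25, Mir93 and Mir106b and overlaps Cops6 and Ap4m1 on the other strand. Of the other ring subunits, Mcm2 averaged 243 ± 12.6 CPM in ORP5/8 KD, 275 ± 11.5 in ATP11A/C KD, 292 ± 6.26 in CDC50A KD and 248 ± 6.93 in Parental (SD, n = 4 each), and Mcm3 averaged 292 ± 8.31 CPM in ORP5/8 KD, 327 ± 9.68 in ATP11A/C KD, 372 ± 4.73 in CDC50A KD and 304 ± 3.5 in Parental. Both were higher in ATP11A/C KD (0.15 and 0.11) and in CDC50A KD (0.24 and 0.29), and the Mcm3 call in ATP11A/C KD was lost without ATP11A/C KD 1 (log2 fold change 0.10, adjusted p = 0.053). Mcm4 averaged 208 ± 7.8 CPM in ORP5/8 KD, 224 ± 11.9 in ATP11A/C KD, 236 ± 2.75 in CDC50A KD and 211 ± 5.92 in Parental, and was called in CDC50A KD alone (0.16 ± 0.042, adjusted p = 0.00334). Left out in turn, ATP11A/C KD 1 added Mcm4 as higher in that group (log2 fold change 0.12, adjusted p = 0.0279). Both origin recognition subunits among the 39 were lower in ORP5/8 KD. Orc1 lay at 17.2 to 19.1 CPM in ORP5/8 KD and 20.5 to 21.6 CPM in Parental (log2 fold change -0.19 ± 0.067, adjusted p = 0.0239), and that call was lost without Parental 1, 2 or 4 or ORP5/8 KD 2 or 3 (log2 fold change -0.18 to -0.14, adjusted p = 0.0582 to 0.114). The Orc1 call was also lost with no low-count filter. In CDC50A KD Orc1 likewise lay below every Parental library but was not called (-0.14 ± 0.067, adjusted p = 0.0909). It passed as lower there with total-count scaling and in a fit of the compared groups alone. In ATP11A/C KD Orc1 overlapped with Parental (-0.13 ± 0.067, adjusted p = 0.152). ORP5/8 KD and CDC50A KD were not called different for Orc1 (adjusted p = 0.533). Orc6 lay at 31.2 to 34.4 CPM in ORP5/8 KD and 34.4 to 39.5 CPM in Parental (-0.17 ± 0.068, adjusted p = 0.0473). It had the highest adjusted p of the 13 lower calls there, and it was lost without Parental 1, 3 or 4 or ORP5/8 KD 1, 2, 3 or 4 (log2 fold change -0.18 to -0.13, adjusted p = 0.0506 to 0.148). The Orc6 call was also lost with no low-count filter and with the replicate number as a block.

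**Figure D3:**
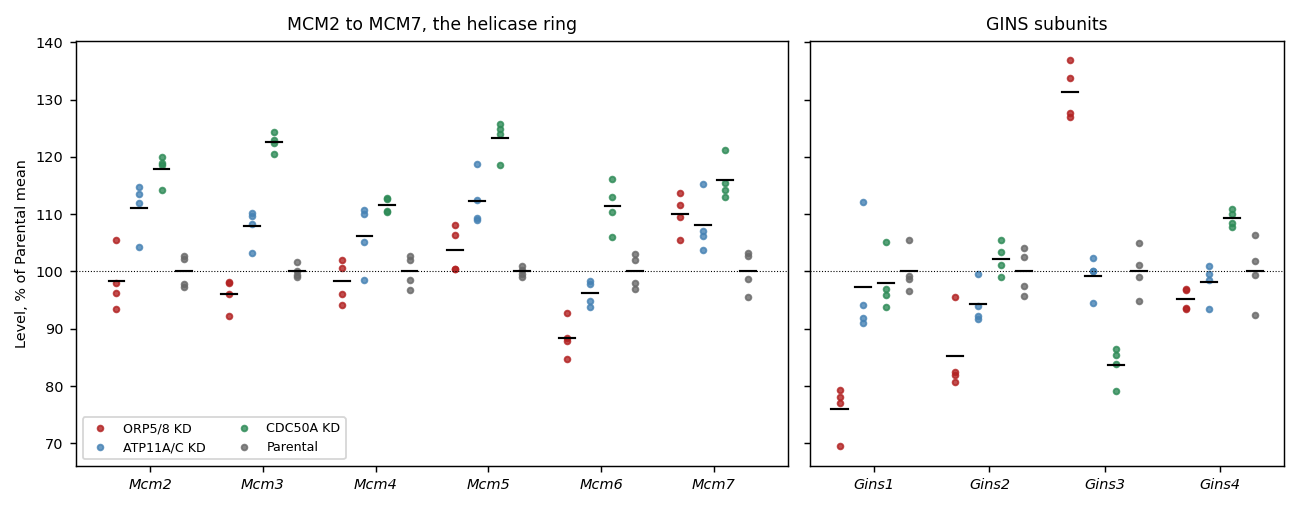
Level of each MCM2-7 and GINS subunit in every library (points) with group means (bars), as a percentage of the Parental mean. All 6 MCM subunits lie above Parental in CDC50A KD, while the 4 GINS subunits spread apart, with Gins3 above and Gins1 below Parental in ORP5/8 KD.

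The genes that switch the helicase on did not move as one. Of Mcm10, Cdc45 and the 4 GINS genes, 1 was higher and 3 lower than Parental in ORP5/8 KD, 1 higher and 0 lower in ATP11A/C KD, and 2 higher and 1 lower in CDC50A KD. The shares of all tested genes, higher and lower, were 22.0% and 24.3%, 17.4% and 20.2%, and 24.3% and 26.1% in the same order. Counts of 1 among so few genes lie near such shares. Mcm10 (ENSMUSG00000026669.14, chr2:4989714-5012791, minus strand) helps to unwind the origin and to recruit polymerase alpha. Mcm10 measured 74, 77, 77.7 and 72.5 CPM across ORP5/8 KD and 90.1, 90.8, 91.4 and 89.2 CPM across ATP11A/C KD. Across CDC50A KD Mcm10 was at 94.2, 96, 94 and 99.9 CPM, and across Parental at 96.2, 97.3, 97.1 and 92.2 CPM. The 4 ORP5/8 KD libraries were below all others. The ATP11A/C KD libraries also lay below Parental without overlap but did not pass the test, and CDC50A KD overlapped with Parental. Against Parental, Mcm10 gave log2 fold changes of -0.35 ± 0.038 (adjusted p = 1.37e-07) for ORP5/8 KD, -0.08 ± 0.037 (adjusted p = 0.0917) for ATP11A/C KD and 0.00 ± 0.038 (adjusted p = 0.929) for CDC50A KD. Cdc45, the helicase subunit that enters last with GINS, was higher in ATP11A/C KD (0.20 ± 0.047, adjusted p = 0.00196) and CDC50A KD (0.21 ± 0.047, adjusted p = 0.00115), at 51.6 ± 2.97 and 51.7 ± 2.07 CPM against 44.9 ± 0.768 CPM in Parental, and did not pass in ORP5/8 KD (-0.01).

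GINS joins its 4 different subunits in equal number, and the log2 fold changes of their genes spanned 0.79 in ORP5/8 KD, 0.07 for ATP11A/C KD and 0.38 for CDC50A KD. Gins1 (ENSMUSG00000027454.10, chr2:150905400-150931280, plus strand) was the replication gene that fell most in ORP5/8 KD. Levels of Gins1 were 22, 19.3, 21.7 and 21.4 CPM in ORP5/8 KD and 25.3, 31.1, 26.1 and 25.5 CPM in ATP11A/C KD. For CDC50A KD the values of Gins1 were 26, 29.2, 26.9 and 26.6 CPM, and for Parental 26.8, 27.5, 27.4 and 29.3 CPM. Its ORP5/8 KD libraries were below all others, and the other groups overlapped with one another. ATP11A/C KD 2, at 31.1 CPM, stood above the other 3 of its group. Gins1 had a log2 fold change against Parental of -0.40 ± 0.067 (adjusted p = 5.32e-05) for ORP5/8 KD, -0.04 ± 0.067 (adjusted p = 0.675) for ATP11A/C KD and -0.03 ± 0.067 (adjusted p = 0.709) for CDC50A KD. Gins3 (ENSMUSG00000031669.10, chr8:95633453-95645060, plus strand) moved the other way. Gins3 stood at 62.2, 57.7, 58 and 60.7 CPM in the 4 ORP5/8 KD libraries and at 42.9, 46.5, 45.5 and 45.5 CPM in those of ATP11A/C KD. Gins3 in CDC50A KD was 35.9, 38.1, 38.8 and 39.3 CPM, against 43.1, 45.9, 47.7 and 45 CPM in Parental. The ORP5/8 KD libraries were above all others, the CDC50A KD libraries below all others, and ATP11A/C KD overlapped with Parental. Gins3 had a log2 fold change against Parental of 0.39 ± 0.045 (adjusted p = 3.38e-07) for ORP5/8 KD, -0.01 ± 0.046 (adjusted p = 0.881) for ATP11A/C KD and -0.26 ± 0.047 (adjusted p = 0.000111) for CDC50A KD. It was the gene with the largest rise in ORP5/8 KD and 1 of 2 that fell in CDC50A KD. Gins2 averaged 33.5 ± 2.71 CPM in ORP5/8 KD, 37.1 ± 1.4 in ATP11A/C KD, 40.2 ± 1.1 in CDC50A KD and 39.3 ± 1.58 in Parental, and was lower in ORP5/8 KD (-0.23 ± 0.054, adjusted p = 0.00139, against 0.238 and 0.669 as adjusted p in ATP11A/C and CDC50A KD). Gins4 averaged 32.8 ± 0.676 CPM in ORP5/8 KD, 33.8 ± 1.12 in ATP11A/C KD, 37.7 ± 0.502 in CDC50A KD and 34.5 ± 2.02 in Parental. It was called higher in CDC50A KD (0.13 ± 0.048, adjusted p = 0.0304), a call lost without Parental 3 or 4 or CDC50A KD 1, 2, 3 or 4 (log2 fold change 0.09 to 0.13, adjusted p = 0.0617 to 0.132). Either change of the low-count filter also ended it.

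**Figure D4:**
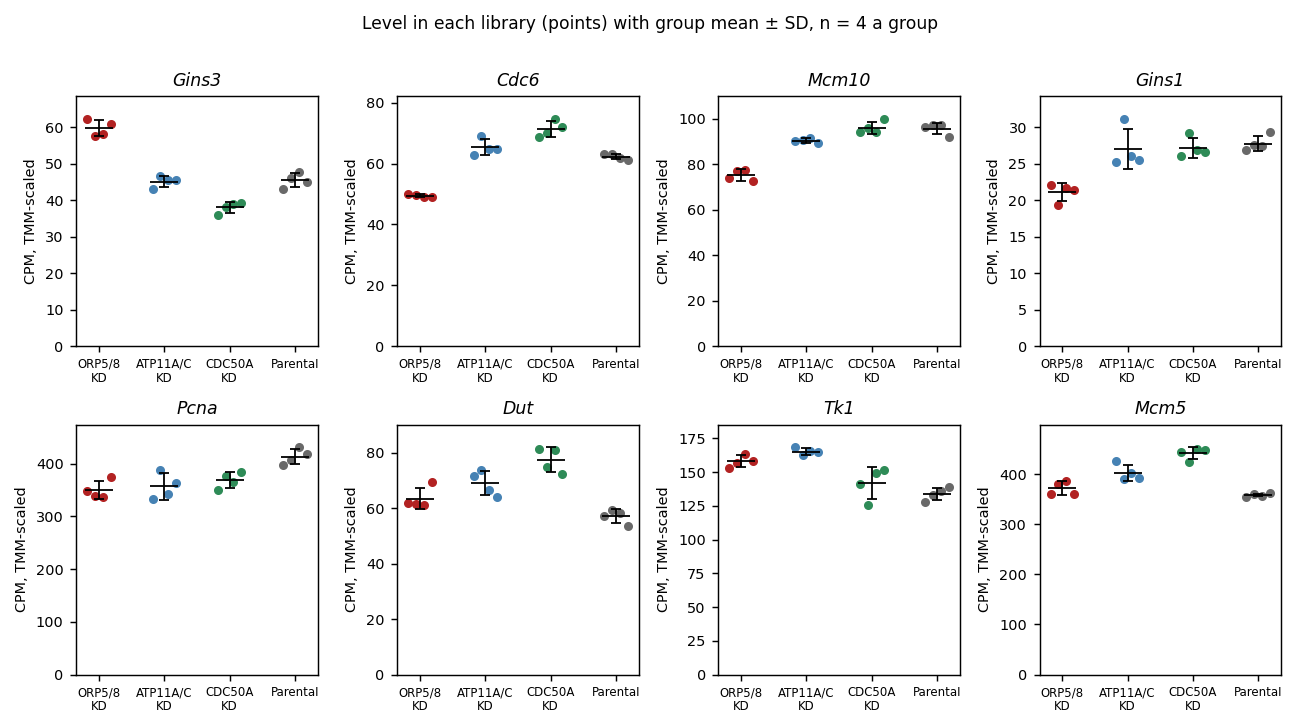
Level in CPM of 8 genes in each library (points) with the mean ± SD of the 4 libraries of a group. Gins3 is highest in ORP5/8 KD and lowest in CDC50A KD, Cdc6, Mcm10 and Gins1 are lowest in ORP5/8 KD, Pcna is lower in all 3 knockdown groups than in Parental, and Dut is highest in CDC50A KD.

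The sliding clamp was lower in all 3 knockdown groups, while the loader genes that were called were higher, except Rfc3 in ORP5/8 KD. Pcna (ENSMUSG00000027342.14, chr2:132249162-132253314, minus strand), the ring that tethers polymerases to DNA, was the 1 replication gene lower in all 3 knockdown groups. ORP5/8 KD libraries had 349, 338, 338 and 375 CPM of Pcna, and the 4 of ATP11A/C KD had 332, 389, 343 and 363 CPM. CDC50A KD libraries had 351, 377, 365 and 384 CPM, and Parental libraries 396, 408, 431 and 418 CPM. No knockdown library reached the lowest Parental library, and the 3 knockdown groups overlapped with one another. Against Parental, Pcna gave log2 fold changes of -0.24 ± 0.050 (adjusted p = 0.000474) for ORP5/8 KD, -0.21 ± 0.050 (adjusted p = 0.00194) for ATP11A/C KD and -0.16 ± 0.050 (adjusted p = 0.00961) for CDC50A KD. Of all tested genes 10.9% were lower in all 3. All 16 expected counts of Pcna carried decimals. Rfc2 (ENSMUSG00000023104.9, chr5:134581366-134601805, plus strand), a subunit of the 5-part loader that opens the clamp, was higher in all 3 groups. Rfc2 measured 79.5, 84.6, 82.7 and 83.3 CPM across ORP5/8 KD and 88, 82.4, 85.3 and 83.1 CPM across ATP11A/C KD. Across CDC50A KD Rfc2 was at 90.3, 87.3, 92.1 and 89.1 CPM, and across Parental at 75, 74, 76.3 and 73.9 CPM. Every knockdown library was above every Parental library. Rfc2 had a log2 fold change against Parental of 0.14 ± 0.037 (adjusted p = 0.0032) for ORP5/8 KD, 0.18 ± 0.037 (adjusted p = 0.000572) for ATP11A/C KD and 0.26 ± 0.037 (adjusted p = 5.79e-06) for CDC50A KD. In CDC50A KD 4 of the 5 loader genes were higher (Rfc1, Rfc2, Rfc4 and Rfc5), in ATP11A/C KD Rfc2 alone, and in ORP5/8 KD Rfc1 and Rfc2 were higher and Rfc3 lower. Of all tested genes 24.3%, 17.4% and 22.0% were higher in these groups in the same order.

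Rfc1, the large loader subunit, averaged 147 ± 8.07 CPM in ORP5/8 KD, 136 ± 1.82 in ATP11A/C KD, 147 ± 7.02 in CDC50A KD and 133 ± 3.45 in Parental. It was higher in ORP5/8 KD (0.15 ± 0.044, adjusted p = 0.00964) and in CDC50A KD (0.15 ± 0.044, adjusted p = 0.00869), the second of which was lost without CDC50A KD 1 or 2 (log2 fold change 0.11 to 0.12, adjusted p = 0.0513 to 0.064). Rfc3 averaged 31.2 ± 1.05 CPM in ORP5/8 KD, 36.7 ± 1.99 in ATP11A/C KD, 33.9 ± 1.77 in CDC50A KD and 34.8 ± 1.45 in Parental. It was lower in ORP5/8 KD (-0.16 ± 0.053, adjusted p = 0.0189), a call lost without Parental 1 or 3 or ORP5/8 KD 1, 2 or 4 (log2 fold change -0.15 to -0.12, adjusted p = 0.0514 to 0.0911). Using no low-count filter also ended that call. Rfc5 averaged 91.3 ± 3.5 CPM in ORP5/8 KD, 97.6 ± 2.94 in ATP11A/C KD, 109 ± 3.49 in CDC50A KD and 93.5 ± 2.89 in Parental and was higher in CDC50A KD (0.22 ± 0.041, adjusted p = 0.000186), as was Rfc4 (0.20 ± 0.063, adjusted p = 0.0114), which averaged 43.9 ± 2.76 CPM in ORP5/8 KD, 46.3 ± 4.39 in ATP11A/C KD, 50.5 ± 1.73 in CDC50A KD and 44 ± 2.66 in Parental. The Rfc4 call was lost without CDC50A KD 4 (log2 fold change 0.16, adjusted p = 0.0544).

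Among the 8 genes of polymerases, single-strand binding and lagging-strand joining, none was called lower in any knockdown group. Against Parental, 3 were higher in ORP5/8 KD (Pold1, Pole and Fen1), 4 in ATP11A/C KD (Pold1, Fen1, Lig1 and Rpa2) and 5 in CDC50A KD (Pole, Fen1, Lig1, Rpa1 and Rpa2). The shares of all tested genes called higher were 22.0%, 17.4% and 24.3%, and those called lower 24.3%, 20.2% and 26.1%. Fen1 (ENSMUSG00000024742.15, chr19:10199132-10204169, minus strand) is the nuclease that trims the flaps between Okazaki fragments. Levels of Fen1 were 168, 180.5, 183 and 167 CPM in ORP5/8 KD and 186, 174, 182 and 186 CPM in ATP11A/C KD. For CDC50A KD the values of Fen1 were 207, 204, 215 and 214 CPM, and for Parental 163, 167, 161 and 162 CPM. All knockdown libraries were above Parental, with CDC50A KD above the other 2 knockdown groups as well and the lowest ORP5/8 KD library level with the highest Parental one at 167 CPM. Against Parental, Fen1 gave log2 fold changes of 0.10 ± 0.040 (adjusted p = 0.0486) for ORP5/8 KD, 0.16 ± 0.040 (adjusted p = 0.00339) for ATP11A/C KD and 0.36 ± 0.040 (adjusted p = 2.16e-07) for CDC50A KD. The ORP5/8 KD call was lost without Parental 3 or 4 or ORP5/8 KD 2 or 3 (log2 fold change 0.09 to 0.10, adjusted p = 0.0924 to 0.112). It was also lost with DESeq2 size factors, with no low-count filter and with the replicate number as a block. Rpa2 (ENSMUSG00000028884.14, chr4:132768332-132778752, plus strand) is the middle subunit of the complex that coats single-stranded DNA. Rpa2 stood at 71.2, 73.1, 74.2 and 73.6 CPM in the 4 ORP5/8 KD libraries and at 77.7, 84.8, 78.9 and 81.8 CPM in those of ATP11A/C KD. Rpa2 in CDC50A KD was 82.4, 79.6, 86.7 and 90.3 CPM, against 68.9, 72, 69 and 69.4 CPM in Parental. ATP11A/C KD and CDC50A KD lay above Parental, and ORP5/8 KD overlapped with it. Rpa2 had a log2 fold change against Parental of 0.06 ± 0.043 (adjusted p = 0.24) for ORP5/8 KD, 0.21 ± 0.043 (adjusted p = 0.000578) for ATP11A/C KD and 0.28 ± 0.043 (adjusted p = 1.73e-05) for CDC50A KD.

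Pold1 (ENSMUSG00000038644.14, chr7:44532746-44548849, minus strand) is the catalytic subunit of polymerase delta, the main lagging-strand enzyme. ORP5/8 KD libraries had 119, 124, 133 and 129 CPM of Pold1, and the 4 of ATP11A/C KD had 141, 108, 138 and 125 CPM. CDC50A KD libraries had 125, 113, 129.7 and 125 CPM, and Parental libraries 117, 111, 111 and 107 CPM. ORP5/8 KD lay above Parental without overlap, and the other 2 knockdown groups overlapped with Parental, ATP11A/C KD over the widest range. Against Parental, Pold1 gave log2 fold changes of 0.18 ± 0.065 (adjusted p = 0.0289) for ORP5/8 KD, 0.20 ± 0.066 (adjusted p = 0.0207) for ATP11A/C KD and 0.15 ± 0.066 (adjusted p = 0.0707) for CDC50A KD. The ORP5/8 KD call was lost without Parental 3 or 4 or ORP5/8 KD 3 or 4 (log2 fold change 0.16 to 0.18, adjusted p = 0.0565 to 0.0781), and the ATP11A/C KD call without Parental 4 or ATP11A/C KD 1 or 3 (log2 fold change 0.15 to 0.18, adjusted p = 0.0617 to 0.0862). In CDC50A KD Pold1 passed without Parental 1 or CDC50A KD 2 (log2 fold change 0.17 to 0.18, adjusted p = 0.0447 to 0.0487). Pole (ENSMUSG00000007080.14, chr5:110286306-110337474, plus strand) is the catalytic subunit of polymerase epsilon, the leading-strand enzyme. Pole measured 117, 118, 119 and 114 CPM across ORP5/8 KD and 112, 98.4, 109 and 109 CPM across ATP11A/C KD. Across CDC50A KD Pole was at 112, 113, 112 and 109 CPM, and across Parental at 107, 97.7, 101 and 97.7 CPM. ORP5/8 KD and CDC50A KD lay above Parental without overlap, and ATP11A/C KD overlapped with it. Pole had a log2 fold change against Parental of 0.21 ± 0.044 (adjusted p = 0.000398) for ORP5/8 KD, 0.09 ± 0.044 (adjusted p = 0.113) for ATP11A/C KD and 0.14 ± 0.044 (adjusted p = 0.00916) for CDC50A KD. In ATP11A/C KD Pole passed without Parental 1 or ATP11A/C KD 2 (log2 fold change 0.14, adjusted p = 0.00838 to 0.0278).

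Lig1, which seals Okazaki fragments, averaged 161 ± 5.03 CPM in ORP5/8 KD, 166 ± 11 in ATP11A/C KD, 179 ± 5.84 in CDC50A KD and 149.7 ± 3.21 in Parental. It was higher in ATP11A/C KD (0.15 ± 0.045, adjusted p = 0.0131) and CDC50A KD (0.26 ± 0.045, adjusted p = 6.73e-05). The first call was lost without ATP11A/C KD 1 (log2 fold change 0.10, adjusted p = 0.0677), and in ORP5/8 KD (0.10 ± 0.045, adjusted p = 0.065) Lig1 passed without Parental 1 or ORP5/8 KD 4 (log2 fold change 0.12 to 0.13, adjusted p = 0.0446 to 0.046). Rpa1, the large single-strand binding subunit, averaged 235 ± 5.57 CPM in ORP5/8 KD, 239.6 ± 11.6 in ATP11A/C KD, 252 ± 7.7 in CDC50A KD and 227 ± 3.48 in Parental and was higher in CDC50A KD (0.15 ± 0.040, adjusted p = 0.00359). In ATP11A/C KD it passed without ATP11A/C KD 2 (log2 fold change 0.11, adjusted p = 0.0427). The polymerase that starts each fragment gave no call. Pola1, its catalytic subunit, averaged 87.1 ± 7.11 CPM in ORP5/8 KD, 84 ± 7.29 in ATP11A/C KD, 91.8 ± 7.3 in CDC50A KD and 92.6 ± 5.02 in Parental, and Prim1, the primase subunit, 40.9 ± 4.6 CPM in ORP5/8 KD, 42.8 ± 5.34 in ATP11A/C KD, 39.6 ± 3.2 in CDC50A KD and 40.4 ± 2.81 in Parental, and neither was called in any comparison (smallest adjusted p against Parental 0.11 and 0.47, both in ATP11A/C KD). Prim1 had the largest standard error of the 39 genes in each of these comparisons, at 0.086 on the log2 scale.

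In nucleotide supply, Dut was higher in all 3 knockdown groups and Tyms in ATP11A/C KD and CDC50A KD, while the small subunit of ribonucleotide reductase was lower in ORP5/8 KD and ATP11A/C KD. Dut (ENSMUSG00000027203.15, chr2:125247190-125258608, plus strand) hydrolyses dUTP, which keeps uracil out of DNA and yields the precursor of thymidylate. Levels of Dut were 61.9, 61.7, 61.2 and 69.3 CPM in ORP5/8 KD and 71.5, 73.6, 66.6 and 64.2 CPM in ATP11A/C KD. For CDC50A KD the values of Dut were 81.4, 74.9, 81.1 and 72.3 CPM, and for Parental 57.1, 59.5, 58.2 and 53.8 CPM. Every knockdown library was above every Parental library. Against Parental, Dut gave log2 fold changes of 0.15 ± 0.055 (adjusted p = 0.0283) for ORP5/8 KD, 0.27 ± 0.055 (adjusted p = 0.000501) for ATP11A/C KD and 0.44 ± 0.055 (adjusted p = 1.36e-06) for CDC50A KD. The ORP5/8 KD call was lost without Parental 4 or ORP5/8 KD 4 (log2 fold change 0.11 to 0.12, adjusted p = 0.102 to 0.127), and ORP5/8 KD 4, at 69.3 CPM, stood above the other 3 libraries of its group. Tyms (ENSMUSG00000025747.12, chr5:30058202-30073617, minus strand) makes thymidylate from dUMP. Tyms stood at 61.6, 63, 63.4 and 61.9 CPM in the 4 ORP5/8 KD libraries and at 73.9, 78.8, 73.1 and 69 CPM in those of ATP11A/C KD. Tyms in CDC50A KD was 78.5, 81.8, 74.2 and 76.8 CPM, against 63.6, 63.8, 62.9 and 63.8 CPM in Parental. The ATP11A/C KD and CDC50A KD libraries were above all Parental ones, and ORP5/8 KD overlapped with Parental. Tyms had a log2 fold change against Parental of -0.02 ± 0.042 (adjusted p = 0.673) for ORP5/8 KD, 0.21 ± 0.042 (adjusted p = 0.00036) for ATP11A/C KD and 0.29 ± 0.042 (adjusted p = 8.04e-06) for CDC50A KD.

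Tk1 (ENSMUSG00000025574.13, chr11:117815526-117826092, minus strand) salvages thymidine and is made in S phase. ORP5/8 KD libraries had 153, 156, 164 and 158 CPM of Tk1, and the 4 of ATP11A/C KD had 168, 163, 165 and 165 CPM. CDC50A KD libraries had 141, 125, 149 and 151 CPM, and Parental libraries 128, 133, 136 and 139 CPM. ORP5/8 KD and ATP11A/C KD lay above Parental, and the CDC50A KD libraries, the most scattered, overlapped with it. Against Parental, Tk1 gave log2 fold changes of 0.24 ± 0.048 (adjusted p = 0.000372) for ORP5/8 KD, 0.30 ± 0.049 (adjusted p = 3.72e-05) for ATP11A/C KD and 0.09 ± 0.049 (adjusted p = 0.152) for CDC50A KD. In CDC50A KD Tk1 passed without CDC50A KD 2 (log2 fold change 0.13, adjusted p = 0.0183). Rrm2 (ENSMUSG00000020649.11, chr12:24708241-24714146, plus strand) is the S-phase subunit of ribonucleotide reductase, which makes deoxynucleotides. Rrm2 measured 189, 184, 184 and 183 CPM across ORP5/8 KD and 180.3, 209.9, 200.3 and 200.4 CPM across ATP11A/C KD. Across CDC50A KD Rrm2 was at 229, 229, 227 and 212 CPM, and across Parental at 218, 225, 226 and 213 CPM. ORP5/8 KD and ATP11A/C KD lay below Parental without overlap, and CDC50A KD overlapped with it. Rrm2 had a log2 fold change against Parental of -0.25 ± 0.044 (adjusted p = 7.24e-05) for ORP5/8 KD, -0.16 ± 0.044 (adjusted p = 0.00748) for ATP11A/C KD and 0.03 ± 0.044 (adjusted p = 0.65) for CDC50A KD. Rrm1, the large subunit, averaged 326 ± 18 CPM in ORP5/8 KD, 331 ± 8.58 in ATP11A/C KD, 369 ± 12.9 in CDC50A KD and 336 ± 11.9 in Parental. It was higher in CDC50A KD (0.14 ± 0.044, adjusted p = 0.0132), a call lost without Parental 4 or CDC50A KD 1 or 3 (log2 fold change 0.11 to 0.12, adjusted p = 0.0518 to 0.073).

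The 4 genes of S-phase entry and methylation upkeep gave no call in ATP11A/C KD or CDC50A KD, and 3 of them were lower in ORP5/8 KD, where 24.3% of all tested genes were. Uhrf1, which brings the maintenance methyltransferase to newly copied DNA, lay at 250.4 to 279 CPM in ORP5/8 KD and 305 to 316 CPM in Parental (-0.20 ± 0.060, adjusted p = 0.00821), with decimals in all 16 of its expected counts. E2f1, the activator that opens the S-phase programme, lay at 51.1 to 54 CPM in ORP5/8 KD and 57 to 59.4 CPM in Parental (-0.16 ± 0.048, adjusted p = 0.0105). Ccne2, a cyclin of S-phase entry, lay at 43.8 to 55.1 CPM in ORP5/8 KD and 52.8 to 61.6 CPM in Parental (-0.21 ± 0.077, adjusted p = 0.0273), and its call was lost without Parental 1 or 3 or ORP5/8 KD 2, 3 or 4 (log2 fold change -0.20 to -0.15, adjusted p = 0.0667 to 0.129). In ATP11A/C KD Ccne2 passed without ATP11A/C KD 2 (log2 fold change -0.20, adjusted p = 0.0445). In CDC50A KD Ccne2 lay at 47.7 to 51.5 CPM, below every Parental library (-0.18 ± 0.078, adjusted p = 0.0635). It passed as lower there with total-count scaling, either change of the filter, the DESeq2 test and the compared groups alone. Set against CDC50A KD directly, ORP5/8 KD was not called different for Ccne2 (adjusted p = 0.699) or E2f1 (adjusted p = 0.111). For Uhrf1 and Ccne1 it was called lower (adjusted p = 0.00673 and 0.00203), but neither call held under every alternative. Ccne1, the other E-type cyclin, lay at 44 to 49.3 CPM in ORP5/8 KD, 48.4 to 49.6 in ATP11A/C KD, 51.3 to 54.6 in CDC50A KD and 49 to 53.5 in Parental and was not called against Parental (smallest adjusted p 0.0757, in ORP5/8 KD). All 3 lower calls of this group were lost under upper-quartile and total-count scaling.

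Over the 3 comparisons with Parental, 36 of the 39 genes were called at least once (against 72.0% of all tested genes), and Pola1, Prim1 and Ccne1 never. Mcm7, Rfc2, Fen1 and Dut were higher in all 3, which 6.45% of all tested genes were. Genes lower in ORP5/8 KD and called in neither other group numbered 9, a pattern that 5.97% of all tested genes had. Such a pattern does not show the other groups unchanged. Orc1, Rfc3, Ccne2 and E2f1 were not called different between ORP5/8 KD and CDC50A KD (adjusted p = 0.533, 0.0564, 0.699 and 0.111). The lower calls of Orc1, Orc6, Rfc3, Uhrf1, Ccne2 and E2f1 were lost under upper-quartile and total-count scaling. Genes higher in both ATP11A/C KD and CDC50A KD numbered 11 (12.8% of all genes), and those higher in CDC50A KD and called in neither other group 7 (7.03%). Cdc6 and Mcm6 were lower in ORP5/8 KD and higher in CDC50A KD, and Gins3 the reverse, patterns of 3.22% and 3.23% of all genes.

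Set directly against each other, without Parental, the knockdown groups differed most between ORP5/8 KD and CDC50A KD. There 26 of the 39 genes were lower in ORP5/8 KD and 2 higher (Gins3 and Tk1), where 29.4% and 27.5% of all tested genes were, with a median log2 fold change of -0.20. With upper-quartile scaling 20 were lower and 3 higher (22.1% and 34.1% of all genes), and with total-count scaling, which put the median of all tested genes at 0.12 where TMM put it at -0.01, 14 were lower and 5 higher (17.2% and 40.1% of all genes). The 14 lower genes called under every alternative were Cdc6, Cdt1, Mcm2, Mcm3, Mcm5, Mcm6, Mcm10, Gins1, Gins2, Rfc5, Fen1, Rrm2, Tyms and Dut, and the share of all genes that held so was not counted. The widest differences were those of Gins3 (0.65 ± 0.046, adjusted p = 1.85e-10, 1.57-fold) and Cdc6 (-0.53 ± 0.040, adjusted p = 4.83e-10). The libraries did not overlap for 29 of the 39 genes, against 51.0% of all tested genes. Against ATP11A/C KD, ORP5/8 KD had 15 of the genes lower and 3 higher, where 20.4% and 18.2% of all genes were, with a median of -0.07. Upper-quartile and total-count scaling each left 8 lower, where 15.4% and 15.8% of all genes were, and the 3 higher calls came down to Gins3 alone without ORP5/8 KD 2. Gins3 (0.40 ± 0.045, adjusted p = 3.31e-07) and Cdc6 (-0.40 ± 0.040, adjusted p = 4.95e-08) again differed most. The libraries did not overlap for 14 of the 39, against 32.9% of all genes. CDC50A KD had 12 of the genes higher than ATP11A/C KD and 2 lower (Gins3 and Tk1), where 13.5% and 12.7% of all genes were, with a median of 0.09. The 12 came to 7 without ATP11A/C KD 3, CDC50A KD 1 or CDC50A KD 3. With total-count scaling 4 were higher and 4 lower, where 5.40% of all genes were higher and 22.2% lower. Libraries did not overlap for 13 of the 39, against 22.1%.

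In these direct tests, Orc6, Cdc6, Mcm6, Mcm10, Gins1 and Gins2 were lower in ORP5/8 KD than in each of the other 3 groups, as 12.0% of all tested genes were. The calls of Cdc6, Mcm10 and Gins1 held in all 3 comparisons under every alternative. Against ATP11A/C KD, Mcm6 (-0.12 ± 0.040, adjusted p = 0.0206) lost its call without ORP5/8 KD 3 or 4 or ATP11A/C KD 3 (log2 fold change -0.12 to -0.10, adjusted p = 0.054 to 0.0755), Gins2 (-0.15 ± 0.054, adjusted p = 0.0365) without ORP5/8 KD 1, 2 or 4 or ATP11A/C KD 2, 3 or 4 (log2 fold change -0.15 to -0.12, adjusted p = 0.0524 to 0.122) and Orc6 (-0.22 ± 0.067, adjusted p = 0.0132) without ATP11A/C KD 2 (log2 fold change -0.14, adjusted p = 0.0577). Against CDC50A KD, Orc6 (-0.20 ± 0.068, adjusted p = 0.0186) lost its call without ORP5/8 KD 2 or 4 or CDC50A KD 1 or 4 (log2 fold change -0.17, adjusted p = 0.0556 to 0.0627). Cdc6, Cdt1, Mcm3, Mcm5, Mcm6, Gins4, Rfc5, Fen1, Rrm1 and Dut were higher in CDC50A KD than in each of the other 3 groups, as 7.30% of all tested genes were. Cdt1, Mcm3, Mcm6 and Fen1 held all 3 calls under every alternative. Against ATP11A/C KD the log2 fold change was 0.23 for Cdt1, 0.18 for Mcm3, 0.21 for Mcm6 and 0.20 for Fen1, and Rfc5 (0.15) lost its call with total-count scaling alone. The others lost it when single libraries were left out: Cdc6 without ATP11A/C KD 1, 3 or 4 or CDC50A KD 3 or 4 (log2 fold change 0.10 to 0.12, adjusted p = 0.0507 to 0.111), Mcm5 without ATP11A/C KD 4 or CDC50A KD 1 or 3 (log2 fold change 0.12, adjusted p = 0.0512 to 0.0629), Gins4 without ATP11A/C KD 3 or CDC50A KD 1 or 3 (log2 fold change 0.13 to 0.14, adjusted p = 0.0619 to 0.0878), Rrm1 without ATP11A/C KD 3 or CDC50A KD 1 (log2 fold change 0.13 to 0.14, adjusted p = 0.0502 to 0.0522) and Dut without ATP11A/C KD 3 or 4 or CDC50A KD 1 or 3 (log2 fold change 0.13 to 0.15, adjusted p = 0.0924 to 0.114). Tk1 went against this order. It was higher in ORP5/8 KD than in CDC50A KD (0.15 ± 0.048, adjusted p = 0.0105) and lower in CDC50A KD than in ATP11A/C KD (-0.22 ± 0.048, adjusted p = 0.00255).

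Within a library the genes differ in level by more than the knockdowns changed any of them. Per kilobase of exon (mm10, GENCODE M21), Pcna was the highest of the 39 in every group, at 146 ± 7.36 CPM per kb in ORP5/8 KD, 149 ± 10.4 in ATP11A/C KD, 154 ± 6.02 in CDC50A KD and 172 ± 6.1 in Parental. Mcm5 followed, at 93.3 ± 3.57, 101 ± 4.04 and 111 ± 2.88 CPM per kb in ORP5/8, ATP11A/C and CDC50A KD and 89.8 ± 0.735 in Parental. Orc1 was lowest, at 5.32 ± 0.266, 5.58 ± 0.528 and 5.5 ± 0.285 CPM per kb in the same order and 6.07 ± 0.138 in Parental. Subunits of one complex were not level with each other. In Parental the MCM ring ran from 35.6 ± 0.997 CPM per kb for Mcm2 to 89.8 ± 0.735 for Mcm5, GINS from 9.59 ± 0.385 for Gins2 to 25.6 ± 1.5 for Gins4, and the clamp loader from 9.63 ± 0.402 for Rfc3 to 28.7 ± 1.73 for Rfc4. These lengths join all annotated exons, so a gene with many exons that are not used is set too low. The coefficient of variation over the 4 libraries had a median over the genes of 3.83% in ORP5/8 KD, 4.86% in ATP11A/C KD, 3.69% in CDC50A KD and 3.10% in Parental. The median was highest for the ATP11A/C KD libraries, where Orc6 stood at 34.1, 44.5, 37.3 and 36.5 CPM.

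**Figure D5:**
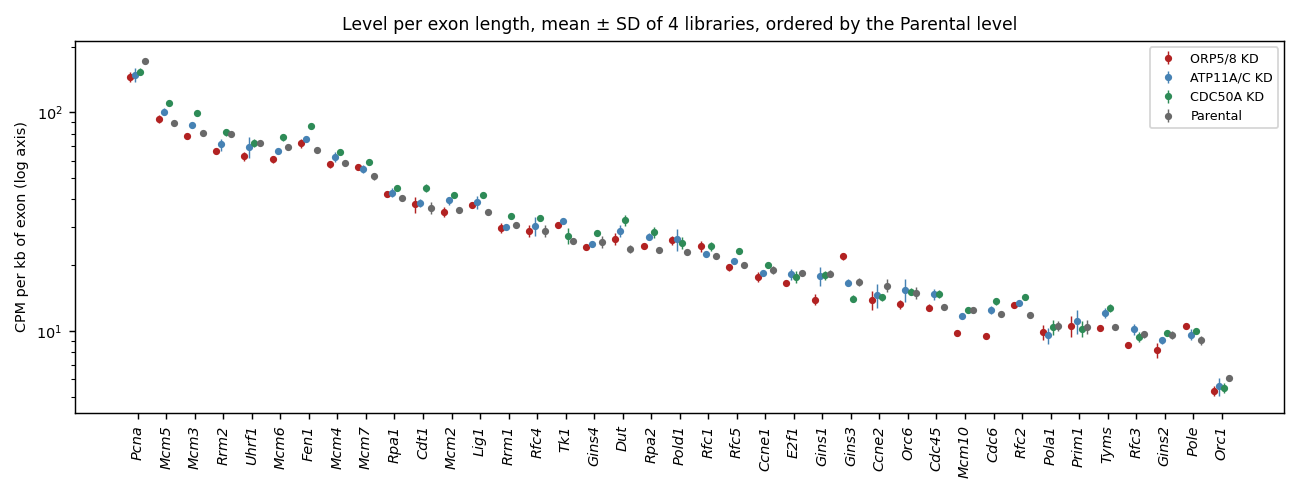
Mean ± SD of 4 libraries of each gene in CPM per kilobase of exon (log axis), for the 4 groups, ordered by the Parental level. Pcna lies highest and Orc1 lowest in every group.

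Other genes of the same processes were counted by lists, each against Parental at the same threshold and to be read against the shares of all genes given above. Values of single genes in these lists are log2 fold changes against Parental ± SE. A group left out for such a gene may have been called as well, since only the smallest adjusted p of each comparison were named. The 32 other replication factors (further subunits and loading factors) gave 12 higher and 3 lower in ORP5/8 KD, 9 and 1 for ATP11A/C KD and 10 and 5 for CDC50A KD, with medians of 0.08, 0.07 and 0.06. Among them Ticrr, which helps Cdc45 onto the helicase, was 0.35 ± 0.053 (adjusted p = 2.03e-05) in ATP11A/C KD and 0.43 ± 0.053 (adjusted p = 8.73e-07) in CDC50A KD. The 20 genes of fork protection and alternative clamp loading gave 5 higher and 0 lower in ORP5/8 KD, 6 and 1 for ATP11A/C KD and 6 and 2 for CDC50A KD, with medians of 0.02, 0.07 and 0.05. Brca2, which guards stalled forks, was 0.27 ± 0.069 (adjusted p = 0.00253) in ORP5/8 KD, 0.23 ± 0.069 (adjusted p = 0.0124) in ATP11A/C KD and 0.27 ± 0.069 (adjusted p = 0.00321) in CDC50A KD. The 13 genes of chromatin assembly behind the fork gave 2 higher and 4 lower in ORP5/8 KD, 4 and 0 for ATP11A/C KD and 6 and 0 for CDC50A KD, with medians of 0.01, 0.08 and 0.10. Ssrp1, a subunit of the histone chaperone FACT, was higher in all 3 (0.16 ± 0.035, adjusted p = 0.000665, 0.17 ± 0.035, adjusted p = 0.000482 and 0.29 ± 0.035, adjusted p = 8.33e-07 in the same order), and Chaf1b, of chromatin assembly factor 1, was lower in ORP5/8 KD (-0.19 ± 0.043, adjusted p = 0.000903). The small counts of lower genes in these lists changed when single libraries were left out. The 3 lower replication factors in ORP5/8 KD came to 1 without Parental 3 or ORP5/8 KD 2, the 5 in CDC50A KD to 3 without Parental 3, and the 1 in ATP11A/C KD to 0 without Parental 3 or 4 or ATP11A/C KD 1 or 3. The 2 lower fork genes in CDC50A KD came to 0 without Parental 3 and to 1 without Parental 1 or 4 or CDC50A KD 1 or 3, and the 1 in ATP11A/C KD to 0 without any 1 Parental library or ATP11A/C KD 2 or 4.

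Nucleotide supply outside the 39 genes moved in both directions in each knockdown group. Its 20 genes gave 6 higher and 5 lower in ORP5/8 KD, 12 and 4 for ATP11A/C KD and 15 and 5 for CDC50A KD, with medians of 0.06, 0.13 and 0.22. Dck, which salvages deoxycytidine, was lower in all 3 knockdown groups, with -1.17 ± 0.059 (adjusted p = 4.34e-13) in ORP5/8 KD, -1.10 ± 0.059 (adjusted p = 2.73e-12) in ATP11A/C KD and -0.75 ± 0.058 (adjusted p = 1.16e-09) in CDC50A KD. Dck averaged 93.4 ± 5.36 CPM in ORP5/8 KD against 210.4 ± 1.87 CPM in Parental. Samhd1, which breaks down deoxynucleotides, was -0.86 ± 0.041 (adjusted p = 1.76e-13) in ORP5/8 KD and -0.36 ± 0.041 (adjusted p = 4.11e-07) in ATP11A/C KD. All 20 genes, Samhd1 among them, were called in CDC50A KD. Shmt1, of the folate cycle that feeds thymidylate synthesis, was 0.57 ± 0.048 (adjusted p = 5.26e-09) in ATP11A/C KD and 0.69 ± 0.048 (adjusted p = 1.93e-10) in CDC50A KD.

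Regulators of the passage from G1 into S went in both directions in each knockdown group. Of 30 listed, 27 were tested, and they gave 9 higher and 8 lower in ORP5/8 KD, 10 and 7 for ATP11A/C KD and 14 and 9 for CDC50A KD, with medians of 0.08, 0.07 and 0.19. Upper-quartile and total-count scaling each gave 14 higher in ORP5/8 KD, where 32.6% and 32.3% of all tested genes were, against 22.0% with TMM. The 7 lower in ATP11A/C KD came to 4 without Parental 1 and to 3 without Parental 3 or ATP11A/C KD 4. Ccnd1, the D-type cyclin of G1, averaged 196 ± 7.55 CPM in ORP5/8 KD against 499 ± 17.6 CPM in Parental, with a log2 fold change of -1.35 ± 0.044 (adjusted p = 3.14e-16). Cdkn1a, the inhibitor p21, averaged 115 ± 5.76 CPM in ORP5/8 KD against 265 ± 9.13 CPM in Parental (-1.20 ± 0.051, adjusted p = 2.77e-14), and in CDC50A KD it was -0.45 ± 0.051 (adjusted p = 2.61e-07). Cdk6, a kinase partner of D-type cyclins, was -0.82 ± 0.063 (adjusted p = 6.71e-10) in ORP5/8 KD and -0.53 ± 0.063 (adjusted p = 6.42e-07) in CDC50A KD. A G1 cyclin, its kinase and a cell cycle inhibitor were thus all lower in ORP5/8 KD. Tfdp2, a dimer partner of E2F factors, was higher in ORP5/8 KD (0.89 ± 0.062, adjusted p = 1.13e-10), and E2f7, a repressor of E2F targets, was higher in ATP11A/C KD (0.48 ± 0.056, adjusted p = 5.68e-07) and CDC50A KD (0.48 ± 0.056, adjusted p = 5.4e-07). The 24 genes of mitosis gave 9 higher and 1 lower in ORP5/8 KD, 3 and 6 for ATP11A/C KD and 9 and 5 for CDC50A KD, with medians of 0.08, 0.02 and 0.05. With total-count scaling 16 were higher in ORP5/8 KD, where 32.3% of all tested genes were. With TMM, the 1 lower in ORP5/8 KD became 2 without Parental 4 or ORP5/8 KD 1. Cdc20, the activator of the anaphase-promoting complex, was 0.43 ± 0.049 (adjusted p = 2.67e-07) in ORP5/8 KD and 0.33 ± 0.049 (adjusted p = 1.13e-05) in CDC50A KD. Mki67, the proliferation antigen Ki-67, was -0.30 ± 0.055 (adjusted p = 0.0002) in ATP11A/C KD.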

How the data were processed

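Poly(A) RNA of RAW264.7 cells was sequenced with a stranded kit in 16 libraries of 4 groups. The authors deposited RSEM expected counts per gene. Per the submitters' processing notes, Trim Galore 0.5.0, STAR 2.7.5a, Picard, RSEM and the build mm10 were used. The strand setting of the counting is not given in the sources used here. Expected counts were rounded to whole numbers, 92 spike-in records were left out, and 55573 genes were filtered with filterByExpr (minimum count 10), which left 13107. These were scaled by TMM and fitted over all 16 libraries with edgeR 4.0.16 (quasi-likelihood test) in R 4.3.3, with Benjamini-Hochberg adjustment over all tested genes and a threshold of 0.05. Library totals of 24020891 to 41543050 counts set the precision.

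Genes given with all library values were those called in one direction in all 3 comparisons with Parental, the 4 largest called changes in each direction per comparison, and those called in opposite directions. From the other lists, up to 4 called genes with the smallest adjusted p per comparison could be named. The members and lists were chosen with earlier results of these data known. Alternatives were other scalings, filters and tests (DESeq2 1.42.0), a replicate block, a fit without the groups not compared, and leaving out each library. Total-count scaling, and all alternatives for the other lists, were added after seeing the data. The fit was tested on simulated data, set up as ORP5/8 KD against Parental. It recovered 25.8% of 66 genes changed by a log2 size of 0.25. At sizes of 0.5 and 1 it recovered 66.7% and 86.4% of 66 genes each. Of 124 calls there, 6 were false. A small change can thus be missed, and a gene that was not called is not shown to be unchanged. One targeted gene is not reported here. Promoters came from a RefSeq table (GRCm38.p6) and gene positions from GENCODE M21.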

Additional observations from a re-analysis of the deposited data

Results flagged for a closer look

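Over 164 groups of 4 libraries, 8 held a library whose gap to the nearest of the others was, as a share of the group's range, over the 95% critical value of Dixon's test, where chance gives about 1 in 20. Ccne1 had 53.5 CPM in Parental 4, against 49.0 to 49.7 CPM in the other 3. Dut had 69.3 CPM in ORP5/8 KD 4, against 61.2 to 61.9 CPM in the other 3. Gins1 had 31.1 CPM in ATP11A/C KD 2, against 25.3 to 26.1 CPM, and Gins2 had 37.5 CPM in ORP5/8 KD 3, against 31.7 to 32.4 CPM. Rfc4 had 53.1 CPM in CDC50A KD 4, against 49.5 to 49.8 CPM, and Rpa2 had 72.0 CPM in Parental 2, against 68.9 to 69.4 CPM. Rrm2 was low in CDC50A KD 4 at 212 CPM, where the other 3 had 227 to 229 CPM, and high in ORP5/8 KD 1 at 189 CPM, where the other 3 had 183 to 184 CPM.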

How the results depend on the processing

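Over all alternatives, 3744 values of the 39 genes were recomputed. The side of the threshold was kept in 3468, the call was lost in 223 and a call was gained in 50, each without a turn of a called value. Among the 3468, 151 values that were called neither way changed sign, all of them at most 0.121 in size with TMM, and 65 of these with upper-quartile or total-count scaling. In 3 more, a value called under 1 of the settings turned its sign. These 3 came with total-count scaling in ORP5/8 KD against CDC50A KD: Rfc1 at 0.12 (0.00 with TMM, unrounded below 0), Rfc2 at 0.00347 (-0.12 with TMM) and Rpa1 at 0.0276 (-0.10 with TMM). The cause was not tested.

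Lower genes in ORP5/8 KD against Parental numbered 7 with upper-quartile and 7 with total-count scaling (13 in the report). Lower genes in CDC50A KD against Parental numbered 5 with total-count scaling and 4 in a fit of the compared groups alone (2 in the report). In ORP5/8 KD against ATP11A/C KD, lower genes numbered 8 with upper-quartile and 8 with total-count scaling (15 in the report), and higher genes 1 in the fit of the compared groups alone (3 in the report). In ORP5/8 KD against CDC50A KD, total-count scaling gave 5 higher and 14 lower (2 and 26 in the report). In CDC50A KD against ATP11A/C KD, total-count scaling gave 4 higher and 4 lower, and the fit of the compared groups alone 7 higher (12 and 2 in the report).

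With each library left out in turn, higher and lower genes numbered 6 to 10 and 9 to 12 in ORP5/8 KD, 10 to 15 and 2 to 3 in ATP11A/C KD, and 19 to 23 and 2 to 2 in CDC50A KD, all against Parental. Between knockdown groups they numbered 1 to 3 and 10 to 14 (ORP5/8 KD against ATP11A/C KD), 2 to 2 and 24 to 25 (ORP5/8 KD against CDC50A KD), and 7 to 12 and 2 to 2 (CDC50A KD against ATP11A/C KD).

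Replicate numbers did not visibly pair the libraries. Over 24 same-number pairs the correlation of deviations from the group means ran from -0.43 to 0.21, against -0.32 to 0.25 for pairs of different numbers. Of the same-number pairs, 3 were over 0.1. Correlating best with its own number in all other groups at once, a strict measure, held for 0 of 16 libraries. With the number as a block, higher and lower genes numbered 8 and 12 in ORP5/8 KD, 12 and 2 in ATP11A/C KD and 23 and 2 in CDC50A KD against Parental. Between knockdown groups the block gave 3 and 14 (ORP5/8 KD against ATP11A/C KD), 2 and 25 (ORP5/8 KD against CDC50A KD) and 12 and 2 (CDC50A KD against ATP11A/C KD).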
